A study of Mus musculus with 14 samples.

Results

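*Jchain*, *Nupr1*, *Pate14*, *Htr2b*, *Akain1* and *Galnt5* gave a higher signal in pituitaries of 4-month-old than of 2-month-old female mice, and *Cbln4*, *Efnb3* and *Anln* gave a lower signal. These 9 genes, out of 14920 tested, were chosen by the 4 minus 2 month contrast of the same arrays: in a limma model with genotype, age and experiment as terms, each reached 1.8-fold over both genotypes with an adjusted p below 0.01. They make up 0.0603% of the genes tested, 6 of them higher (0.0402%) and 3 lower (0.0201%) at 4 months. Since that contrast selected them, their age changes are given below as description, without a test. Tests are given for the *Prlr* genotype, for the experiment and for the difference between the age changes of the genotypes. Values and limits of p for age appear only to describe which genes met them.

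RNA came from whole pituitaries of *Prlr*+/+ females (WT) and of females without the prolactin receptor gene, *Prlr*-/- (KO), at ages before overt tumors appear in the KO. Each array carried a pool of 3 pituitaries, so 42 mice stand behind 14 arrays: 4 of WT and 4 of KO at 2 months, and 3 of WT and 3 of KO at 4 months. Experiment 1 had 8 arrays, and experiment 2, with separate animals, had 6, because the authors removed 1 array of each genotype at 4 months for poor hybridization. The mice of 2 and of 4 months were different animals, and values below run from experiment 1 (arrays 1 and 2 of a group) to experiment 2 (arrays 3 and 4).

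The anterior pituitary holds lactotrophs, which secrete prolactin, beside somatotrophs, corticotrophs, thyrotrophs and gonadotrophs, together with vessels, stroma, folliculostellate cells and macrophages. Prolactin restrains its own secretion through hypothalamic dopamine and by acting on lactotrophs, and mice without its receptor develop prolactin-secreting tumors with age. The 9 genes come from separate systems: an immunoglobulin chain (*Jchain*), a stress-induced regulator (*Nupr1*), a division protein (*Anln*), a serotonin receptor (*Htr2b*), a kinase anchor (*Akain1*), a glycosylation enzyme (*Galnt5*), and secreted or membrane-bound ligands (*Cbln4*, *Efnb3*, *Pate14*).

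Values are log2 signals with 0 at the 75th percentile of each array. Between 33275 and 41887 of 59305 spots were well above background on an array. Each of the 9 genes had 1 probe, and all 9 passed the filter on dim probes. *Nupr1*, *Akain1*, *Galnt5* and *Anln* were well above background on 14 arrays, *Pate14* and *Htr2b* on 13, *Efnb3* on 12, *Jchain* on 11 and *Cbln4* on 10. *Cbln4* passed the filter only through WT at 2 months, the group where it was highest, *Efnb3* only through the 2-month groups and *Jchain* only through the 4-month groups, again where each was highest. In their other groups these 3 genes were at background on some arrays. In experiment 1 all 2-month arrays lay in columns 1 and 2 of the slide and all 4-month arrays in columns 3 and 4, so age and slide column cannot be told apart there. In experiment 2 both columns that held 4-month arrays also held 2-month arrays.

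*Prlr* itself, the targeted gene, separated the genotypes on its brighter probe. The values were 2.73, 2.94, 2.90 and 3.24 in WT at 2 months, 2.60, 2.91 and 3.20 in WT at 4 months, 1.59, 1.98, 2.21 and 2.07 in KO at 2 months, and 1.96, 2.13 and 2.58 in KO at 4 months. Every KO array lay below every WT array, as the genotypes in the sample labels would have it. The signal in KO, 1191 to 2267 against 2631 to 3936 in WT, was not abolished, and where this probe lies relative to the disrupted part of the gene is not known here. A dimmer *Prlr* probe overlapped between genotypes (0.00 to 0.46 in WT, -0.17 to 0.36 in KO). The pituitary hormone genes *Prl*, *Gh*, *Pomc*, *Tshb* and *Lhb* were well above background on all 14 arrays. In bulk tissue, fewer cells and less RNA per cell cannot be told apart.

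**Figure D1:**
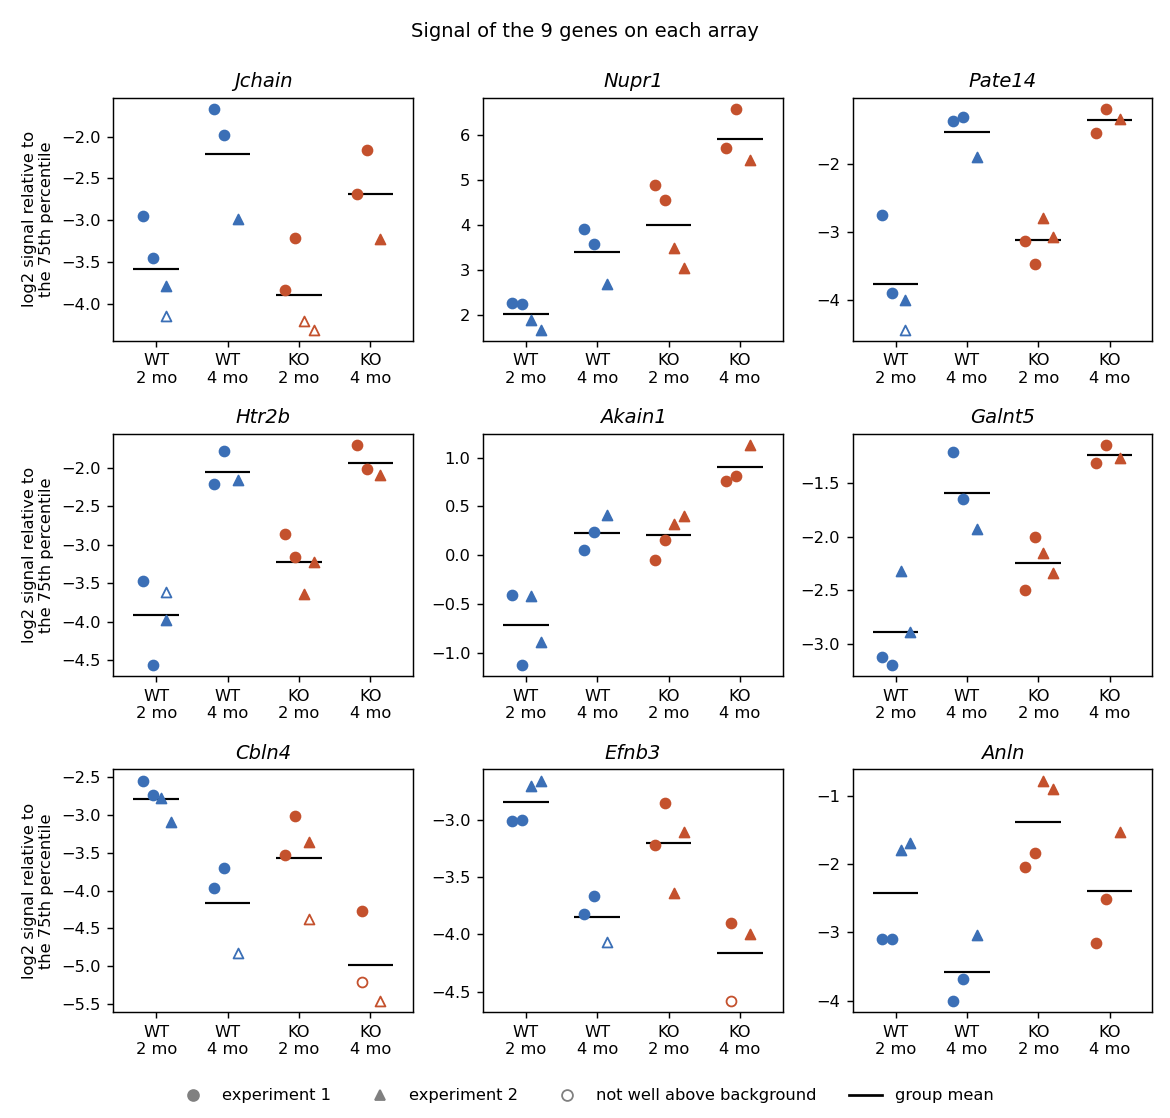
Signal of each of the 9 genes on each array (y axis, log2, 0 at the array's 75th percentile) by genotype and age (x axis), with circles for experiment 1, triangles for experiment 2, open symbols for spots not well above background and a line at the group mean. *Nupr1* had group means of 2.03 and 3.40 in WT and 4.00 and 5.92 in KO at 2 and 4 months, and *Anln* had -2.42 and -3.58 in WT and -1.39 and -2.40 in KO.

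Promoters in the RefSeq table for the GRCm38.p6 build, 300 bases across the annotated start of the gene, were matched by symbol for 8 of the 9 genes (*Efnb3* had no entry) and searched on both strands for 7 motifs. The promoters of *Nupr1* and *Anln* are shown because these genes alone passed the limits with genotype over both ages. Motifs and promoters were chosen after the values were seen, and a match is a description only. Matches are in capitals, no 2 overlap, the sequence runs 5' to 3' on the strand of the gene, and positions count from the start of the gene. *Nupr1* (chr7:126625421-126625720, minus strand, 58.3% GC) has TTGCATCA at -110, the other strand of the C/EBP-ATF response element TGATGNAA, which 3.97% of 32851 promoters and 1 of the 8 hold. It also has the interferon-gamma activated site TTCNNNGAA, as TTCTGGGAA, at -128 (8.3% of promoters, 1 of the 8), and the E-box CACGTG at -225 (7.15%, 2 of the 8). The cAMP response element TGACGTCA (1.79%) and the TATA box TATAAA (13.6%) were in 0 of the 8, and CCAAT (37.4%) was in 2, *Cbln4* and *Pate14*.
Nupr1: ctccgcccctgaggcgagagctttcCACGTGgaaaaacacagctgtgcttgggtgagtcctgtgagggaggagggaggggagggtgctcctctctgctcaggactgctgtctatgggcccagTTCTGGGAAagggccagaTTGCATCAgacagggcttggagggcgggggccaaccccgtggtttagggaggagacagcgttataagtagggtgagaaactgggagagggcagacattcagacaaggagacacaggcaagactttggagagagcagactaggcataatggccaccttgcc

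*Nupr1* encodes a small chromatin-associated regulator of transcription that is induced by cell stress. In WT its values were 2.27 and 2.25 (experiment 1) and 1.91 and 1.69 (experiment 2) at 2 months, and 3.92, 3.58 and, in experiment 2, 2.69 at 4 months. In KO they were 4.89, 4.56, 3.50 and 3.06 at 2 months, and 5.72, 6.58 and, in experiment 2, 5.45 at 4 months. The ages did not overlap in either genotype, and the lowest 2 KO arrays at 2 months lay within the range of WT at 4 months. The 4 minus 2 month change was 1.21 in WT (1.49 in experiment 1, 0.90 in experiment 2) and 1.76 in KO (1.42 and 2.18). With the fitted experiment difference taken off the experiment 2 arrays, the groups stood apart. Their order was KO at 4 months (6.22), KO at 2 months (4.46), WT at 4 months (3.71) and WT at 2 months (2.49). *Nupr1* was thus higher in KO at 2 months than in WT at 4 months, and higher again in KO at 4 months.

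The genotype difference in *Nupr1* was the largest of the 9 genes: 2.21 over both ages (95% interval 1.82 to 2.60, limma adjusted p 1.86e-06), or 4.62-fold. It was 1.97 at 2 months (1.48 to 2.46, adjusted p 0.000133) and 2.52 at 4 months (1.95 to 3.08, adjusted p 4.75e-05). All 7 KO arrays lay above every WT array of the same age and experiment. Experiment 1 alone gave 2.43, within the limits, and experiment 2 alone 1.91, which missed the limit on p (adjusted p 0.0226). The call at 2 months ended without the experiment term (adjusted p 0.0109). Experiment 2 alone gave 1.48 at 2 months and 2.76 at 4 months, and there 0 of all genes passed at either age, with 1 array per genotype at 4 months, so these are values only. The larger age change of *Nupr1* in KO than in WT, a difference of 0.55 with an interval of -0.20 to 1.29, did not pass the test (limma adjusted p 0.749).

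Genes of the integrated stress response, the program of translation control and amino acid supply in which *Nupr1* takes part, were set beside it. Of 14 such genes other than *Nupr1*, 12 were higher and 2 lower at 4 months, and 3 were higher at unadjusted p under 0.05 (*Atf3* 0.78, *Phgdh* 0.35, *Asns* 0.25) with 0 lower, where 6.62% of all genes were higher and 6.21% lower at that limit. Their median age change was 0.16 (all genes -0.00), made up of -0.01 in WT and 0.33 in KO. With genotype, where 322 of 14920 genes rose and 612 decreased, 4 of the 14 rose in KO (*Chac1* 1.59, *Psat1* 1.43, *Phgdh* 1.03, *Asns* 0.87) and *Atf3* decreased (-1.16), though the smallest values of *Asns* (0.76) and *Atf3* (-0.77) across scalings were under the fold limit. *Nupr1* thus shared its genotype direction with the 4 genes that rose and not with *Atf3*. Over both genotypes together it shared its age direction with 12 of the 14, *Atf3* among them. Within WT this did not hold for the list as a whole: its median was -0.01, beside 1.21 for *Nupr1*. In KO the median was 0.33, beside 1.76. Over 14 arrays with experiment means removed, the gene most like *Nupr1* was *Aldh1l2*, a mitochondrial folate enzyme (r = 0.987, age 1.12, genotype 1.76), followed by the matrix gene *Ccdc80* (r = 0.973, age 0.53, genotype 1.04).

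The promoter of *Anln* (chr9:22389157-22389456, minus strand, 67.7% GC) has the other E-box, at -65, and TTTGAA, letters of the cell cycle genes homology region, at 29 and, read on the other strand as TTCAAA, at 22. TTTGAA is in 17.9% of promoters and in 2 of the 8, *Anln* and *Jchain*.
Anln: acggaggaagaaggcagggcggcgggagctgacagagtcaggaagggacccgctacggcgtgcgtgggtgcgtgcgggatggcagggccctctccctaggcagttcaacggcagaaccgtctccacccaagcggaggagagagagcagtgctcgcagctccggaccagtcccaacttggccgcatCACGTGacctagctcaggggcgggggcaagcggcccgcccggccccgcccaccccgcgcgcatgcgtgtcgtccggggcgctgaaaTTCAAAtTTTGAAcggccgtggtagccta

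*Anln* encodes anillin, the actin-binding scaffold of the cleavage furrow. In WT its values were -3.11 and -3.09 (experiment 1) and -1.80 and -1.69 (experiment 2) at 2 months, and -4.01, -3.68 and, in experiment 2, -3.04 at 4 months. In KO they were -2.05, -1.84, -0.78 and -0.90 at 2 months, and -3.15, -2.51 and, in experiment 2, -1.53 at 4 months. The ages separated within each experiment and overlapped across experiments in both genotypes, since *Anln* was higher in experiment 2 by 1.16 (adjusted p 2.45e-06). Between ages *Anln* differed by -0.96 in WT (-0.74 in experiment 1, -1.29 in experiment 2) and -0.81 in KO (-0.89 and -0.69). With this difference taken off the experiment 2 arrays, KO at 2 months was highest, KO at 4 months and WT at 2 months overlapped, and WT at 4 months was lowest. The difference taken off was the fitted 1.16 between experiments. *Anln* in KO at 4 months thus stood near its level in WT at 2 months.

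With genotype, *Anln* increased by 1.1 over both ages (95% interval 0.86 to 1.33, limma adjusted p 8.17e-06), or 2.14-fold, with 7 of 7 KO arrays above every WT array of their age and experiment. The difference was 1.03 at 2 months (0.72 to 1.35, adjusted p 0.000552) and 1.18 at 4 months (0.81 to 1.54, adjusted p 0.000387). Under normexp background correction it was 0.64, below the fold limit, and without the experiment term the adjusted p of the same difference was 0.0289. Experiment 1 alone gave 1.09, within the limits, and experiment 2 alone 1.11, outside the limit on p (adjusted p 0.0174). At single ages the calls ended under normexp (0.68 at 2 months, 0.57 at 4 months), without the experiment term (adjusted p 0.217 and 0.194) and in experiment 1 alone (1.16 and 1.01, adjusted p 0.0384 and 0.0368). Experiment 2 alone, where 0 of all genes passed at either age, gave 0.91 and 1.51. The size of the *Anln* difference over both ages was thus the same in both experiments, while its passing of the limits depended on the background correction, the experiment term and the experiments used.

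Division genes were mostly lower with age and in part higher in KO, as *Anln* was. Of 13 cytokinesis genes other than *Anln*, 12 were lower and 1 higher at 4 months (11 lower after quantile normalization), with a median of -0.50 (-0.18 under normexp) and 8 lower at unadjusted p under 0.05. Of 18 proliferation genes, 16 were lower and 2 higher (15 lower under normexp), with a median of -0.59 (-0.25 under normexp) and 12 lower at that limit (6.21% of all genes), among them *Cdk1* (-1.23), *Top2a* (-1.22) and *Mki67* (-1.03). In KO, 5 cytokinesis genes rose (*Birc5* 1.49, *Kif4* 1.31, *Prc1* 1.27, *Cdca8* 1.06, *Ect2* 0.98) and 9 proliferation genes rose, including *Cdk1* (1.95), *Top2a* (1.85) and *Mki67* (1.41), and 0 decreased in either list. Over all genes, 322 of 14920 rose. Across scalings the smallest values of *Kif4* (0.48), *Ect2* (0.58) and *Cdca8* (0.82), and of the proliferation genes *Cdk1* (0.75), *Top2a* (0.67), *Cdc20* (0.70), *Cenpa* (0.57) and *Nusap1* (0.59), were under the fold limit. *Kif4* and *Cdk1* were well above background on 11 arrays and *Top2a* on 10. Not every group met the filter for these genes, which favors a difference between groups in them. The genotype medians went from 0.64 to 0.49 (cytokinesis) and from 0.83 to 0.58 (proliferation) under normexp. *Anln* followed *Mki67* most closely of all genes (r = 0.987 over 14 arrays), then the mitotic kinase *Pbk* (r = 0.979, age -1.20, genotype 1.89). The median age change was -0.66 in WT and -0.45 in KO for the proliferation genes, and -0.46 and -0.20 for the cytokinesis genes, beside -0.96 and -0.81 for *Anln*.

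**Figure D2:**
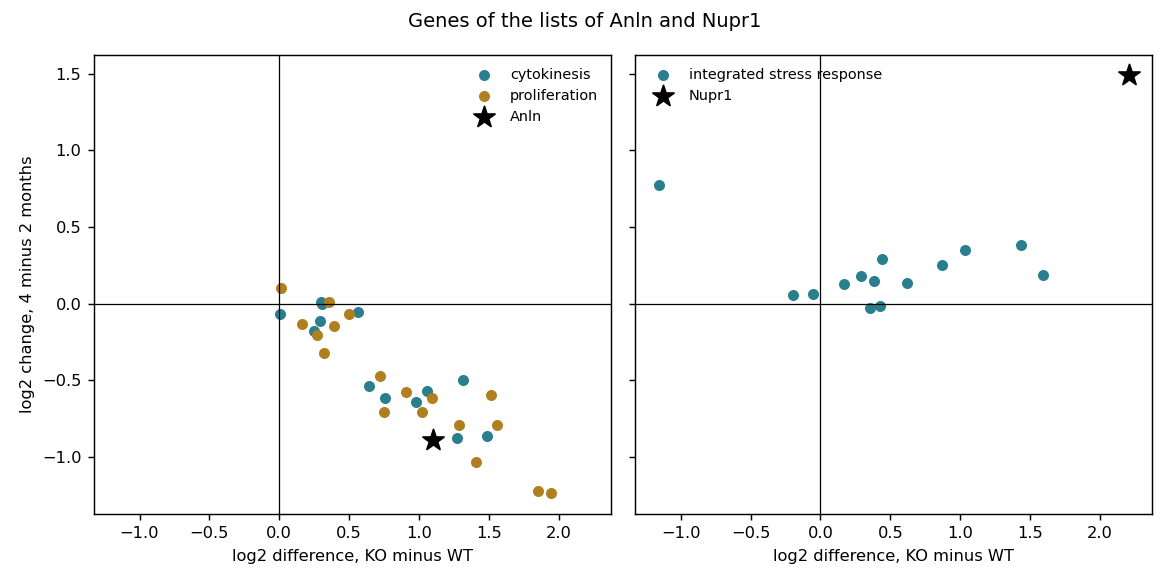
Genotype difference (x axis, KO minus WT, log2) against age change (y axis, 4 minus 2 months, log2) for cytokinesis and proliferation genes with *Anln* as a star (left) and for integrated stress response genes with *Nupr1* as a star (right), 1 point per gene. *Anln* stood at 1.1 and -0.89, and *Nupr1* at 2.21 and 1.49.

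*Akain1* encodes a small anchoring protein that binds protein kinase A. Its values in WT were -0.41, -1.13, -0.42 and -0.89 at 2 months and 0.05, 0.23 and 0.41 at 4 months. KO arrays gave -0.05, 0.15, 0.32 and 0.41 at 2 months and 0.76, 0.81 and 1.13 at 4 months. No array overlapped between ages within a genotype, and KO at 2 months spanned the level of WT at 4 months. The age change was 0.99 in WT (0.91 and 1.06 in experiments 1 and 2) and 0.74 in KO (0.73 and 0.77). Within each genotype, this was the smallest difference between experiments of the 9 genes. *Akain1* rose with genotype at 2 months by 0.92 (0.60 to 1.24, limma adjusted p 0.00122), a call that ended without WT 2-month array 2 (0.81) or WT 2-month array 4 (0.81). It also ended under normexp (0.75) and in experiment 1 alone (0.82, adjusted p 0.0998), and experiment 2 alone, where 0 of all genes passed, gave 1.02. Over both ages the difference was 0.81 (0.57 to 1.05, adjusted p 0.000115), 1.76-fold and so just under the fold limit, and it passed at 0.89 when WT 2-month array 1 was left out. Experiment 1 alone gave 0.73 and experiment 2 alone 0.92 over both ages. At 4 months it was 0.67 (adjusted p 0.0129), outside the limits.

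Other anchoring proteins and subunits of protein kinase A went both ways with age. Of 20 tested, 11 were higher and 9 lower at 4 months (10 and 10 under normexp), with a median of 0.01 (-0.01 under normexp). At unadjusted p under 0.05, *Akap3* was higher (0.51), and *Akap5* (-0.36) and *Prkar2b* (-0.30) were lower, where 6.62% of all genes were higher and 6.21% lower. With genotype *Akap3* rose (1.27) and *Prkar2b* decreased (-0.96), where 322 of 14920 genes rose and 612 decreased. *Akap3* was well above background on 10 arrays, and its smallest values across scalings were 0.20 with age and 0.53, under the fold limit, with genotype. The genes most like *Akain1* on the arrays were *Hapln4*, a matrix link protein (r = 0.976, age 1.12, genotype 0.88), and *Procr*, the endothelial protein C receptor (r = 0.956, age 1.32, genotype 1.07).

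*Htr2b* encodes a serotonin receptor coupled to Gq. In WT it gave -3.47, -4.57, -3.98 and -3.62 at 2 months (the last not well above background) and -2.21, -1.79 and -2.16 at 4 months. KO arrays gave -2.87, -3.16, -3.64 and -3.23 at 2 months and -1.70, -2.01 and -2.09 at 4 months. All 4-month arrays lay above all 2-month arrays, whatever the genotype or experiment. *Htr2b* differed between ages by 1.84 in WT (2.03 in experiment 1, 1.64 in experiment 2) and 1.27 in KO (1.16 and 1.34). The genotype difference in *Htr2b* was 0.69 at 2 months (0.20 to 1.18, adjusted p 0.05) and 0.12 at 4 months (-0.45 to 0.69, adjusted p 0.786), and neither passed. The difference between the age changes, -0.57 (-1.32 to 0.18), also did not pass (limma adjusted p 0.745).

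Of 19 other serotonin genes, 6 were tested, and the synthesis enzyme *Tph1* and the transporter *Slc6a4* were well above background on no array. *Htr2c*, also coupled to Gq, was higher at 4 months (1.48), as *Htr2b* was, but decreased with genotype (-1.46), where *Htr2b* did not pass. *Htr7* (-2.67), *Ddc* (-2.11) and *Maob* (-1.33) also decreased in KO, 4 of 6 in all, and over all genes 612 of 14920 did. *Htr2c* was well above background on 6 arrays and *Htr7* on 8, so the filter let them in through the groups where they were high, which favors a difference between groups, and across scalings they were as small as -0.33 and -0.67 with genotype, under the fold limit, and *Htr2c* 0.47 with age. The list's genotype median was -1.39, and -0.50 under normexp. At 4 months *Ddc* (-0.45) and *Maob* (-0.23) were lower at unadjusted p under 0.05, where 6.21% of all genes were. Among 13 genes of the Gq pathway the median age change was 0.02, with 7 higher and 6 lower, so these genes had no common direction with age. Of them *Plcb3* (0.17) was higher at unadjusted p under 0.05, and 0 were lower, where 6.62% of all genes were higher and 6.21% lower. With genotype *Itpr3* rose (1.42) and *Rgs4* decreased (-0.86, but -0.75 at its smallest across scalings, under the fold limit). Over all genes, 322 of 14920 rose and 612 decreased. Most like *Htr2b* were *Mmp23* (r = 0.962) and the neurofilament gene *Nefh* (r = 0.958).

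*Galnt5* encodes an enzyme that adds the first sugar of mucin-type O-glycans. Its values were -3.13, -3.20, -2.32 and -2.89 in WT at 2 months and -1.21, -1.64 and -1.92 at 4 months. KO arrays gave -2.49, -2.0, -2.15 and -2.34 at 2 months and -1.31, -1.14 and -1.26 at 4 months. All 2-month arrays lay below all 4-month arrays. For *Galnt5* the age change was 1.31 in WT, with 1.74 in experiment 1 against 0.69 in experiment 2, and 1.02 in KO (1.03 and 0.99). The size in WT thus differed between the experiments more than for any other gene that was higher at 4 months. The genotype difference of *Galnt5*, 0.52 (0.19 to 0.84, adjusted p 0.0161), did not pass. Of 20 other genes of mucin-type O-glycosylation, among them enzymes of later steps, 10 were higher and 10 lower with age (9 and 11 under normexp), and the 3 at unadjusted p under 0.05 were all lower (*Galnt16* -0.71, *Galnt10* -0.43, *Galnt14* -0.36), where 6.21% of all genes were. *Galnt10* (-1.08), *Galnt3* (-1.06) and *St6galnac2* (-0.86; -0.59 at its smallest across scalings) decreased in KO, as 612 of 14920 genes did.

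*Pate14* encodes a small secreted protein with a cysteine-rich Ly6 domain. In WT its values were -2.75, -3.89, -4.00 and -4.43 at 2 months (the last not well above background) and -1.38, -1.31 and -1.90 at 4 months. KO arrays gave -3.13, -3.48, -2.80 and -3.07 at 2 months and -1.54, -1.20 and -1.35 at 4 months. The ages were fully apart in both genotypes, and over both genotypes *Pate14* had the largest age change of the 9 genes (1.95). It was 2.19 in WT (1.98 and 2.32 in experiments 1 and 2) and 1.71 in KO (1.93 and 1.59). The genotype difference was 0.44 (-0.02 to 0.91, adjusted p 0.127), from -0.00499 in experiment 1 and 1.04 in experiment 2, and it did not pass. At 2 months *Pate14* differed by 0.65 (0.03 to 1.26, adjusted p 0.129) and passed only without WT 2-month array 1 (0.98, adjusted p 0.00819). The value of that array, -2.75, is the highest of its group.

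None of the 8 other *Pate* genes with a probe was tested, since *Pate12* was well above background on 8 arrays and the others on none, so *Pate14* was the *Pate* gene that could be tested. Among 9 Ly6-domain genes tested, 5 were higher and 4 lower with age (median 0.30, and 0.18 under normexp). At unadjusted p under 0.05, *Plaur* (0.77), *Ly6d* (0.46; 0.18 at its smallest across scalings) and *Cd59a* (0.30) were higher. At that limit *Ly6h* (-0.51) and *Ly6e* (-0.29) were lower, where 6.62% of all genes were higher and 6.21% lower. *Ly6a* (-1.24) and *Ly6c1* (-1.02) decreased in KO, as 612 of 14920 genes did. Across arrays *Pate14* was most like *Vgf* (r = 0.938), a secretory granule gene of neuroendocrine cells that itself stood just outside the limits on age.

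*Jchain* encodes the joining chain of polymeric IgA and IgM, made by plasma cells. In WT its values were -2.95 and -3.45 (experiment 1) and -3.78 and -4.14 (experiment 2) at 2 months, and -1.67, -1.98 and, in experiment 2, -2.98 at 4 months. In KO they were -3.83, -3.22, -4.20 and -4.30 at 2 months, and -2.68, -2.16 and, in experiment 2, -3.22 at 4 months. The values -4.14, -4.20 and -4.30 were not well above background. *Jchain* was lower in experiment 2 (-0.84, adjusted p 0.000153), so the ages were apart within each experiment and overlapped across them. The age change was 1.23 in WT (1.38 and 0.97) and 1.06 in KO (1.11 and 1.03). The genotype difference, -0.38 (-0.66 to -0.10, adjusted p 0.035; -0.09 under normexp), did not pass.

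Other genes of plasma and B cells went both ways with age. Of 15, 10 were tested, with 6 higher and 4 lower at 4 months and a median of 0.07. Only *Derl3* (0.50) was higher at unadjusted p under 0.05, where 6.62% of all genes were. Of the 15 genes listed with *Jchain*, 7 were well above background on all 14 arrays and 4 (*Tnfrsf17*, *Irf4*, *Ms4a1* and *Pax5*) on none. In KO 1 of the 10, *Cd79b*, decreased (-1.54) and 0 rose, with a median of -0.06 (0.10 under normexp). Over all genes, 322 of 14920 rose and 612 decreased. The gene most like *Jchain* was *Tmc6* (r = 0.929, age 0.33, genotype -0.13), then *Enox2* (r = 0.903).

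*Cbln4* encodes a secreted protein of the C1q family that binds neurexins at synapses. In WT its values were -2.55, -2.73, -2.77 and -3.09 at 2 months and -3.96, -3.70 and -4.82 at 4 months. KO arrays gave -3.53, -3.01, -3.36 and -4.37 at 2 months and -4.27, -5.21 and -5.46 at 4 months. The ages were apart in WT, while in KO they overlapped across experiments, and -4.82, -4.37, -5.21 and -5.46 were not well above background. The age change was -1.48 in WT (-1.19 and -1.89 in experiments 1 and 2) and -1.51 in KO (-1.47 and -1.59). The difference between them was -0.04, with an interval of -0.86 to 0.79, and rests in part on values at background. *Cbln4* at 4 months in WT overlapped with KO at 2 months once the fitted experiment difference was taken off the experiment 2 arrays.

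The genotype difference of *Cbln4* was -0.80 over both ages (-1.19 to -0.41, limma adjusted p 0.00378), or 1.74-fold, under the fold limit, with -0.77 in experiment 1 and -0.84 in experiment 2. Under normexp it was -0.12 (adjusted p 0.139). Since *Cbln4* entered the test through WT at 2 months alone, the filter favors a lower value in KO, and 2 of 3 KO arrays at 4 months were at background, so the size is not well determined. It passed the limits without any 1 of 5 arrays: WT 2-month array 2 (-0.85), KO 2-month array 2 (-0.85), KO 2-month array 3 (-0.90), KO 4-month array 1 (-0.90) or WT 4-month array 3 (-0.85). It was -0.78 at 2 months (-1.32 to -0.24, adjusted p 0.043) and -0.82 at 4 months (-1.44 to -0.20, adjusted p 0.0564). Of 7 cerebellins and their partners tested, *Cbln1* was lower at 4 months (-0.57) and decreased in KO (-1.14, but -0.62 at its smallest across scalings, under the fold limit). *Nrxn3* rose in KO (1.52) and was higher with age (0.33).

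*Efnb3* encodes a transmembrane ephrin that is a ligand of Eph receptors. In WT it gave -3.01, -3.01, -2.70 and -2.66 at 2 months and -3.83, -3.67 and -4.07 at 4 months. KO arrays gave -3.22, -2.86, -3.64 and -3.11 at 2 months and -3.90, -4.58 and -3.99 at 4 months. No 4-month array reached any 2-month array of its genotype, and -4.07 and -4.58 were not well above background. In WT the age change of *Efnb3* was -1.01 (-0.73 and -1.39 in experiments 1 and 2), and in KO -0.95 (-1.20 and -0.62), so the larger value fell in a different experiment in each genotype. The genotype difference, -0.34 (-0.64 to -0.04, adjusted p 0.0717; 0.00148 under normexp), did not pass.

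Of 17 other ephrins and Eph receptors, 12 were higher and 5 lower at 4 months (11 and 6 under normexp), with a median of 0.03. At unadjusted p under 0.05, *Efna1* (0.40) and *Epha6* (0.60) were higher and 0 lower. Over all genes 6.62% were higher and 6.21% lower at that limit. In KO *Efnb2* rose (1.15) and *Epha6* decreased (-1.08, and -0.36 at its smallest across scalings), where 322 of 14920 genes rose and 612 decreased. The genes closest to *Efnb3* were *C1qtnf12* (r = 0.921) and *Svep1* (r = 0.906), and *Cbln4* correlated with it as well (r = 0.882).

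All 9 genes separated the ages within each genotype of each experiment, as 464 of 14909 genes (3.11%) did, which follows from their choice by age and supports nothing further. No gene passed the limits on age within WT alone (0% of genes, 0 of the 9, with limma; 1316 genes at unadjusted p under 0.05) or within KO alone (0%, 0 of the 9; 1851 genes). No gene passed the test of a difference between the age changes of the genotypes (0% of genes, 0 of the 9, with limma; lowest adjusted p 0.398, 1115 genes at unadjusted p under 0.05). The estimates of this difference ran from -0.57 (*Htr2b*) to 0.55 (*Nupr1*). In *Pate14*, *Htr2b* and *Akain1* the age change was larger in WT in both experiments, and in the other 6 genes the order of the genotypes turned between experiments. With replicate number as a block, 1 gene passed that test, *Garem2* (1.21, adjusted p 0.00536).

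**Figure D3:**
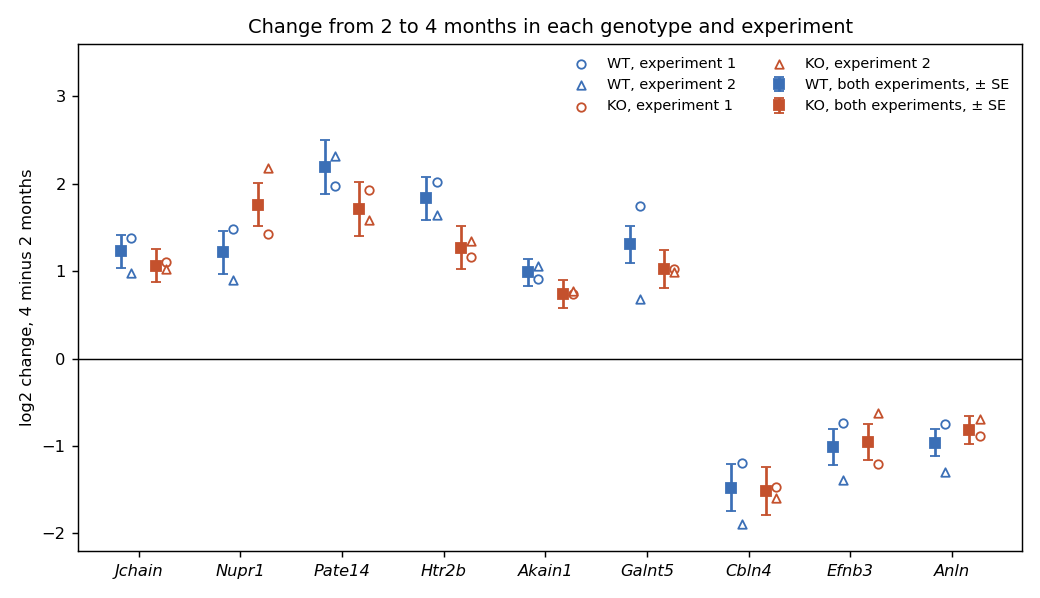
Change from 2 to 4 months (y axis, log2) of each gene (x axis) in WT (blue) and KO (red). Squares stand for both experiments together with bars of 1 standard error, open circles for experiment 1 and open triangles for experiment 2. The values of both experiments ran from -1.48 (*Cbln4*) to 2.19 (*Pate14*) in WT and from -1.51 (*Cbln4*) to 1.76 (*Nupr1*) in KO.

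Membership depended on a limit that several genes barely met. *Efnb3* (-0.98, adjusted p 0.00974) was just inside the limit on p, and *Endou* (1.34) and *Vgf* (1.14), each with an adjusted p of 0.0114, were just outside. *Akain1*, at 1.82-fold, was just inside the fold limit, and *Cpa5* (0.68, 1.60-fold) and *Mmp23* (0.58, 1.49-fold) were the nearest outside it. Of the 9 genes 8 passed with the authors' log2 table and 8 with the mean of the probes, both without *Efnb3* and both 8 genes in all. *Nupr1* and *Htr2b* passed after quantile normalization, *Pate14* and *Htr2b* without the experiment term, and *Htr2b* and *Anln* with replicate number as a block, each time the only 2 genes of all tested, and *Nupr1* and *Pate14* were 2 of 6 under normexp. With no filter on dim probes, and in either experiment alone, 0 of all genes passed, so 0 of the 9 says nothing about them. In these settings every age change kept its direction, so it was the passing of the limits and not the sign that moved. With 1 array left out, 0 of the 9 passed without WT 4-month array 1, 2 or 3, KO 4-month array 2 or 3, KO 2-month array 1 or WT 2-month array 4, where 0 of all genes did (1 without WT 4-month array 3). There was 1 (of 1 gene in all) without WT 2-month array 2, 4 (of 4) without WT 2-month array 3, KO 2-month array 2 or 3 or KO 4-month array 1, and 7 (of 11 and of 9) without WT 2-month array 1 or KO 2-month array 4. Normexp made most age changes smaller: *Cbln4* went to -0.37, *Efnb3* to -0.35, *Anln* to -0.42, *Jchain* to 0.54, *Htr2b* to 0.73, *Pate14* to 1.01, *Galnt5* to 0.72 and *Akain1* to 0.73. *Nupr1* ran from 1.38 to 1.64 across all settings.

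Genotype changed 934 of 14920 genes (6.26%), 322 higher and 612 lower, and *Nupr1* and *Anln* were the 2 of the 9 among them, both higher. With normexp 447 genes passed, and only *Nupr1* of the 9, and experiment 2 alone gave 149 genes and 0 of the 9. Without the fold limit 3489 genes passed (23.4%), and 4 of the 9 did: *Nupr1*, *Anln*, *Akain1* and *Cbln4*, the last subject to the limit of the filter given above and not under normexp. At 2 months 591 genes passed (3.96%) with *Nupr1*, *Anln* and *Akain1* among them, 3 of the 9. At 4 months 1129 genes passed (7.57%) with *Nupr1* and *Anln*, 2 of the 9. Of the genes that passed, *Nupr1* was higher at 4 months and in KO, and *Anln* was lower at 4 months and higher in KO.

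**Figure D4:**
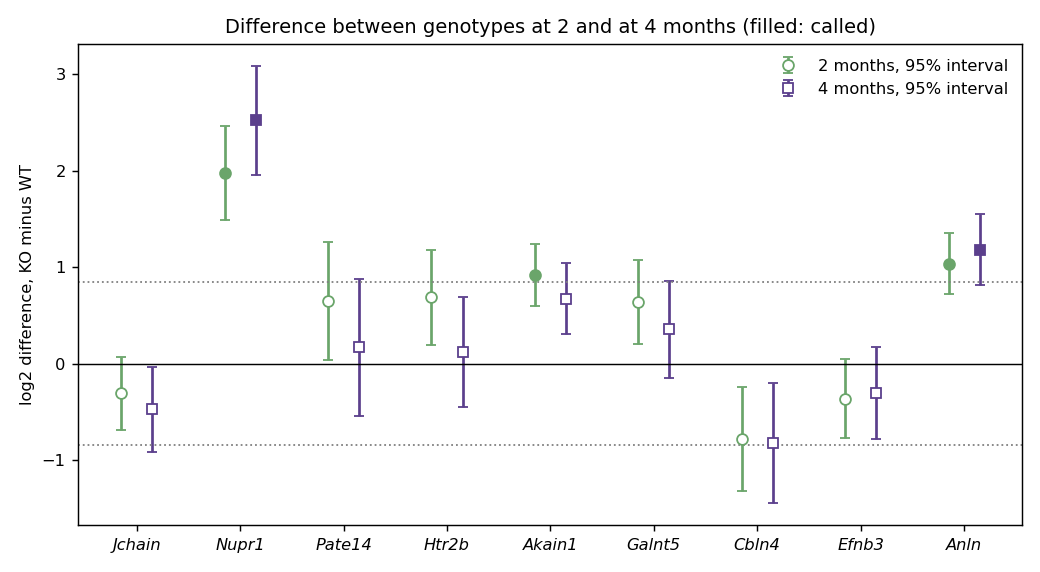
Genotype difference (y axis, KO minus WT, log2) of each gene (x axis) at 2 months (circles) and 4 months (squares) with 95% intervals. Symbols are filled where the limits were passed, and dotted lines mark the fold limit. *Nupr1* gave 1.97 and 2.52, *Anln* 1.03 and 1.18, and *Akain1* 0.92 and 0.67.

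The 9 genes did not form a single profile across arrays. Among the 6 genes higher at 4 months, the 15 pairs had a median r of 0.797 over 14 arrays with experiment means removed, from 0.244 (*Jchain* and *Nupr1*) to 0.888 (*Pate14* and *Htr2b*). The 3 pairs of genes lower at 4 months had a median of 0.285, with *Cbln4* and *Efnb3* at 0.882, and *Anln* apart from both. The 18 mixed pairs had a median of -0.753, from -0.912 (*Pate14* and *Efnb3*) to 0.329 (*Nupr1* and *Anln*, both raised in KO). These values carry the choice by age within them. For deviations within group and experiment (12 arrays in 6 groups of 2, so 6 independent differences behind each r), the median over 36 pairs was 0.123, from -0.960 (*Nupr1* and *Efnb3*) to 0.811 (*Jchain* and *Galnt5*), and the median over the 15 pairs was 0.421.

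**Figure D5:**
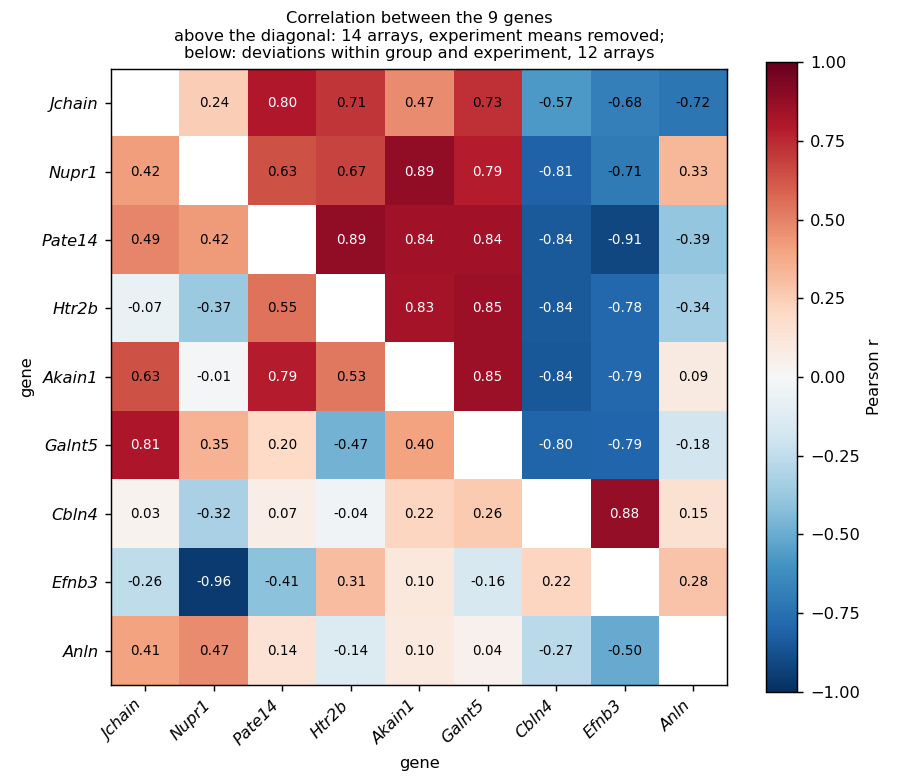
Pearson r for each pair of the 9 genes (both axes), above the diagonal over 14 arrays with experiment means removed and below it for deviations within group and experiment over 12 arrays in 6 groups of 2. *Cbln4* and *Efnb3* had 0.882 above the diagonal, and *Nupr1* and *Efnb3* had -0.960 below it.

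Cell type markers were set beside the 9 genes to describe the tissue, where over all genes 6.62% were higher and 6.21% lower with age at unadjusted p under 0.05, and 322 rose and 612 decreased of 14920 with genotype. All 6 macrophage genes were higher at 4 months (median 0.26), 3 of them at unadjusted p under 0.05, while *Csf1r* was at 0.01. The macrophage median was 0.37 in WT and 0.09 in KO. Of 8 mural and fibroblast genes 3 were higher and 5 lower, and at unadjusted p under 0.05 *Rgs5* was higher (0.57) and *Col1a1* (-0.60), *Col3a1* (-0.53), *Lum* (-0.45) and *Dcn* (-0.34) were lower. *Gh* was -0.51 with age, -0.12 in WT and -0.91 in KO, and decreased with genotype (-0.91), as did *Ghrhr* (-1.05; -0.53 with age). Age medians in WT and KO were 0.09 and -0.63 for 5 gonadotroph genes (4 lower, 1 higher). They were 0.10 and -0.39 for 6 corticotroph and melanotroph genes (4 lower, 2 higher), and -0.04 and -0.29 for 4 folliculostellate and stem cell genes (3 lower, 1 higher). *Nr5a1* (-0.40), *Avpr1b* (-0.63) and *Sox2* (-0.43) were lower and *Oxt* (0.33) higher at unadjusted p under 0.05. *Prl* had an age change of 0.00, whose sign changes with scaling, and a genotype difference of 0.25, outside the fold limit, which was -0.00 at the lowest of the scalings, as that of *Pomc*, also among the brightest probes, was. Of 7 endothelial genes 6 were higher with age (5 under normexp; median 0.07), with *Tek* (0.23) at unadjusted p under 0.05. Of 4 T cell genes 2 were higher and 2 lower, with *Cd3d* (0.65; 0.23 at its smallest across scalings) higher at that limit. With genotype, 1 of 5 gonadotroph genes (*Gnrhr* -1.29), 3 of 6 corticotroph and melanotroph genes (*Avpr1b* -1.43, *Pax7* -1.06, *Tbx19* -0.85, the last -0.70 at its smallest across scalings) and 2 of 7 posterior lobe genes (*Col25a1* -1.15, -0.62 at its smallest across scalings, and *Oxt* -0.91) decreased, and 0 of these lists rose. Of the mural and fibroblast genes *Rgs5* rose (1.32), and *Dcn* (-0.97) and *Lum* (-0.90) decreased. Among 3 skeletal muscle genes, *Cox6a2* rose in KO (2.81) and was higher with age (1.29), while *Myh4*, named after its values were seen, was at -0.81 and -0.33 and did not pass. Which cells carried the changes of the 9 genes was not tested.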

How the data were processed

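Total RNA of pools of 3 mouse pituitaries was labeled with Cy3 and hybridized to Agilent 1-colour arrays. The raw files hold spot intensity values that the scanner software had background-subtracted and detrended within each array, per the file headers, with no step between arrays. The authors also deposited a log2 table, scaled to the 75th percentile of each array with a median subtracted.

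The scanner intensities of 55681 probes (59305 spots, controls left out) were taken to log2, and the 75th percentile of each array was subtracted. These values correlated with the authors' table (r = 0.9995, median absolute difference 0.0152). The filter on dim probes asked for a spot well above background throughout at least 1 group, with at most 2 values missing. Probes were matched to symbols by accession, and the brightest probe stood for each gene, which left 14920 genes. Arrays of a group differed by a median of 0.126 to 0.188 within an experiment and 0.303 to 0.377 between experiments.

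limma 3.58.1 in R 4.3.3 fitted genotype, age and experiment over all genes. A further limma fit of the 4 groups with experiment gave the genotype difference at each age and the difference between the age changes. All p-values were adjusted by Benjamini-Hochberg over the genes tested, and a gene passed below 0.01 with at least 1.8-fold. The fits were tested on simulated data. Counts past the limits on age are given as description for the 9 genes, since age selected them. The genes and lists were chosen with earlier results of these data known. Genes named in the text include the 9, those nearest the limits on age, and listed genes. Most of the listed genes named passed with genotype or had an unadjusted p below 0.05 for age. For most of the 9, genes among the 2 most similar by Pearson r are also named. Others named include *Prlr*, hormone genes, *Csf1r*, *Garem2* and genes at background.

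Replicate number pairs the samples by experiment and duplicate as the labels give them, except that the 4-month arrays of experiment 2 carry no duplicate number and were given that of the first duplicate of experiment 2, an assumption on which the results with the block rest. Paired arrays correlated after group means were removed (r from 0.166 to 0.388, median 0.293, 7 pairs), so a fit with replicate number as a block was run beside the others. Other settings tried were quantile normalization, the authors' table, normexp background correction with an offset of 50, 2 other filters, the mean of the probes, an adjusted p below 0.05 with no fold limit, no experiment term, the experiments taken singly, and fits with 1 array left out. The files have no mean spot signal, so normexp used the median.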

Additional observations from a re-analysis of the deposited data

Results flagged for a closer look

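Single arrays far from the rest of their group were looked for in 18 groups of 4 arrays (9 genes, both genotypes at 2 months), and 0 were past the limit of Dixon's ratio. Groups of 3 arrays were not looked at.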

How the results depend on the processing

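Of the 9 genes, the number past the limits on age was 8 with the authors' table and with the mean of the probes (8 of all genes each), 9 with the adjusted p below 0.05 and no fold limit (117 of all), 2 after quantile normalization (2), 2 under normexp (6), 4 with a filter for all 14 arrays (8), which kept only 4 of them, 2 without the experiment term (2), 2 with the replicate block (2), and 0 with no filter, in experiment 1 alone and in experiment 2 alone (0 of all genes in each). Leaving out 1 array gave from 0 (without WT 4-month array 1, 2 or 3, KO 4-month array 2 or 3, KO 2-month array 1 or WT 2-month array 4, where at most 1 of all genes passed) to 7 (without WT 2-month array 1 or KO 2-month array 4).

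The number of genes that passed with genotype, 934, became 447 under normexp, 5456 with an adjusted p below 0.05 and no fold limit, and 149 in experiment 2 alone, and ran from 838 to 998 with 1 array left out. Of the 9 genes, 2 passed with genotype, against 1 under normexp, 6 with the adjusted p below 0.05, 1 without the experiment term and 0 in experiment 2 alone (2 to 3 with 1 array left out). At 2 months the number was 3, against 1 under normexp, 5 with the adjusted p below 0.05, 1 without the experiment term, 1 in experiment 1 alone and 0 in experiment 2 alone, where 0 of all genes passed (2 to 4 with 1 array left out). At 4 months it was 2, against 1 under normexp, 3 with the adjusted p below 0.05, 1 without the experiment term, 1 in experiment 1 alone and 0 in experiment 2 alone, where again 0 of all genes passed (2 to 2 with 1 array left out).

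The difference between the age changes of the genotypes was past the limits for 0 genes, against 1 with the replicate block (0 to 0 with 1 array left out). For the 9 genes the block changed no other call with genotype, over both ages or at either, and over all genes it gave 933 with genotype, 562 at 2 months (591 without it) and 1092 at 4 months (1129 without it). The genotype difference reversed for *Efnb3* under normexp (0.00148) and for *Pate14* in experiment 1 alone (-0.00499). No age change of the 9 genes reversed: of 633 values, 600 stayed within the spread between replicates and 33 moved beyond it. Of 211 genotype differences, 199 kept their direction and their side of the limits. The causes were not tested.

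Age rests on 3 or 4 pools per group, and on 1 pool per genotype at 4 months in experiment 2. In experiment 1, age cannot be told apart from the slide column. Pools of whole pituitaries hide the spread between mice and between cell types. *Cbln4*, *Jchain* and *Efnb3* were at background on some arrays of the groups where they were lowest. Under normexp the age changes of all of the 9 genes but *Nupr1* and *Akain1* were smaller by more than 1.5 times.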
